A study of Mus musculus with 3 samples.

Results

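The genes described here are 6 genes that mark retinal ganglion cells and their axons: Thy1, Sncg, Gap43, Stmn2, Nefl and Nefh. They were taken as every probe set to which the platform annotation gives exactly 1 gene symbol, that symbol being one of the 6. This gave 9 probe sets, out of 10833 probe sets for 8251 named genes on the array. Of the 9, 8 were measured, that is, their mean signal lay above the mean background floor, and 1 set of Stmn2 was under the floor in every pool. No probe set listed a member together with another gene.

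The study profiled neural retina of Rp1-/- mice at postnatal day 10 on the Affymetrix U74Av2 array, a 1-colour array on which short probes, grouped in sets, stand for each transcript. The 3 arrays form 1 group: each received total RNA from its own pool of retinas of 3 to 4 mice, bred on a mixed 129/SvEv and C57BL/6 background, with retinas taken between 1 and 2 pm. All animals carry the same germline loss of Rp1, a microtubule-associated protein of photoreceptors, and arrays of other genotypes were not analysed here. The comparisons are therefore between pools of mutant retinas and say nothing about the effect of the mutation. The labels do not say whether any pools shared animals or how the sexes were mixed.

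Ganglion cells are the output neurons of the retina, and their axons form the optic nerve. Thy1 and Sncg are used to identify them. Gap43 and Stmn2 belong to growing axons, and Nefl and Nefh build the neurofilaments that fill and widen axons as they mature. None of these genes is exclusive to ganglion cells: Thy1 is also a T cell antigen in mice, Gap43 and Stmn2 occur in other young neurons, and neurofilaments occur in horizontal cells. In whole retina, fewer cells of a type and less RNA per cell cannot be told apart.

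The deposited signals are linear intensities that were already scaled, with trimmed means of 500.25 to 500.26 on the 3 arrays. The background floors were 100.5, 124.8 and 120.4 signal units in pools 1, 2 and 3, and between 65.5% and 69.7% of probe sets lay above them. Pearson's r of log2 signal between arrays, taken across probe sets, was 0.933 to 0.941. Lens crystallin genes differed strongly between the pools, with 8 of 11 measured lens genes past the test of variability described below, so that the pools differed in their lens signal. The 8 were Cryaa, Cryba1, Crybb2, Crygb, Crygc, Crygd, Cryge and Crygs. The summed signal of the lens genes was 94914 in pool 1, 25460 in pool 2 and 203614 in pool 3. Signals of different probe sets were not compared as amounts of transcript.

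All 6 genes were detected in every pool, with ranges between pools of 1.12-fold to 1.77-fold over the 8 measured probe sets. None of the 8 stood out in its spread from sets of similar brightness, as 0.216% of all measured sets did, and none spanned more than 2-fold, as 13.2% did. Counts of 0 in 8 are near these background shares and set the genes apart from nothing. In SD of log2 signal the second Stmn2 set lay above 82.7% and Gap43 above 60.9% of all measured sets, whereas both Sncg sets, Thy1, Nefh and the first Stmn2 set lay above 8.74% to 18.6%. The pools did not rank the genes in one order: pool 2 gave the highest signal for Gap43, Stmn2 and Nefh, whereas pool 2 was the lowest for Thy1 and Sncg. By the brightest set of each gene, 1 gene was highest in pool 1, 3 in pool 2 and 2 in pool 3, where 34.6%, 33.6% and 31.8% of all 6210 measured genes were highest, and 3, 2 and 1 were lowest in these pools, against 33.7%, 33.8% and 32.6% of all. Every one of the 8 sets kept its highest and its lowest pool after quantile normalization.

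Thy1 encodes a small glycoprotein of the immunoglobulin superfamily that is anchored in the plasma membrane by lipid. Its 1 probe set read 1374.8 in pool 1, 1196.3 in pool 2 and 1274.0 in pool 3, with a mean of 1281.7 ± 89.5 (SD, n = 3). The pools lay close together, and the highest exceeded the lowest by 1.15-fold. Its SD of log2 signal was 0.10, below that of 89.9% of measured probe sets.

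Sncg encodes gamma-synuclein, a small soluble protein abundant in ganglion cell bodies and axons. Its brighter probe set, of the f class, read 956.0 in pool 1, 857.0 in pool 2 and 959.4 in pool 3, with a mean of 924.1 ± 58.2 (SD, n = 3). The suffixes f, s, g, r and i mark sets whose probes can bind related transcripts or were chosen under relaxed rules. Pools 1 and 3 were nearly equal in this set, and pool 2 was lower. The other set, without a suffix, had 1010.1, 842.9 and 868.5, a mean of 907.2 ± 90.1 (SD, n = 3). There pool 1 stood highest and pool 3 lay near pool 2, so the sets share their lowest pool and differ in the place of pool 3. The SD of log2 signal was 0.09 and 0.14.

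Gap43 encodes a membrane-bound phosphoprotein of the growth cone that is a substrate of protein kinase C. Its 1 probe set, of the s class, read 1331.4 in pool 1, 2015.2 in pool 2 and 1427.5 in pool 3, with a mean of 1591 ± 370 (SD, n = 3). Pool 2 was higher than the others, by 0.60 over pool 1 and 0.50 over pool 3 on the log2 scale, while pools 1 and 3 differed by 0.10. The range of 1.51-fold corresponded to an SD of log2 signal of 0.32.

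Stmn2 encodes stathmin 2 (SCG10), which binds tubulin and regulates microtubule dynamics in growing axons. The brightest of its 3 probe sets, of the g class, read 2443.1 in pool 1, 2845.9 in pool 2 and 2556.7 in pool 3, with a mean of 2615 ± 208 (SD, n = 3). Its range was 1.16-fold, with pool 2 highest. A further set had 1257.6, 2229.2 and 1267.5, a mean of 1585 ± 558 (SD, n = 3). It put pool 2 at the top as well, but with a range of 1.77-fold, the widest among the 8 measured sets, and an SD of log2 signal of 0.47 against 0.11 for the brightest set. The remaining set had 60.8, 41.8 and 31.7, under the floor in all 3 pools.

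The spread given for Stmn2 thus depended on the probe set chosen. The measured sets gave pool 2 an excess over pool 1 of 0.22 and 0.83 on the log2 scale, and averaging their log2 signals gave an SD of 0.29. To place this disagreement, the brightest pair of measured sets was compared for each of 1095 genes with at least 2 such sets, as the widest gap between the sets' log2 differences between any pools. It was 0.66 for Stmn2 and 0.22 for Sncg, against a median of 0.67 and a 90th percentile of 1.42 over these genes. In 38.4% of the 1095 genes both sets had the same highest pool, as for Stmn2 and unlike Sncg.

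Nefl encodes the light neurofilament subunit, the core on which the other subunits assemble. Its 1 probe set read 525.9 in pool 1, 692.9 in pool 2 and 712.3 in pool 3, with a mean of 644 ± 102 (SD, n = 3). Pools 2 and 3 were nearly equal and pool 1 lay 0.40 and 0.44 below them on the log2 scale. Nefh encodes the heavy subunit, whose long tail is heavily phosphorylated in mature axons. Its 1 probe set read 576.2, 610.5 and 525.0 in the same order, with a mean of 570.6 ± 43.0 (SD, n = 3). The range was 1.35-fold for Nefl and 1.16-fold for Nefh, and the pool that was lowest for Nefl was not the lowest for Nefh.

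**Figure D1:**
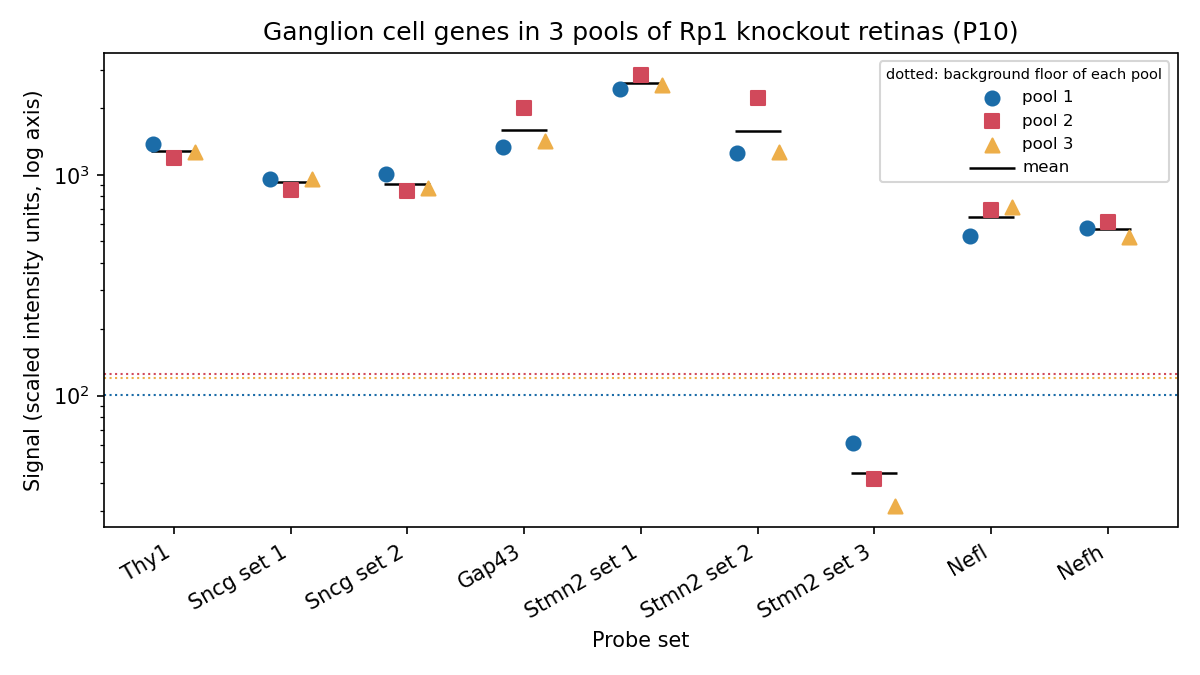
Signal of each probe set of the 6 genes (horizontal axis) in scaled intensity units on a log axis, with 1 symbol per pool, a bar at the mean of the 3 pools and dotted lines at the background floors of the pools. Sets of one gene are numbered by falling mean signal. The third Stmn2 set lies under the floors at 31.7 to 60.8, and the other 8 sets lie above them in every pool.

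**Figure D2:**
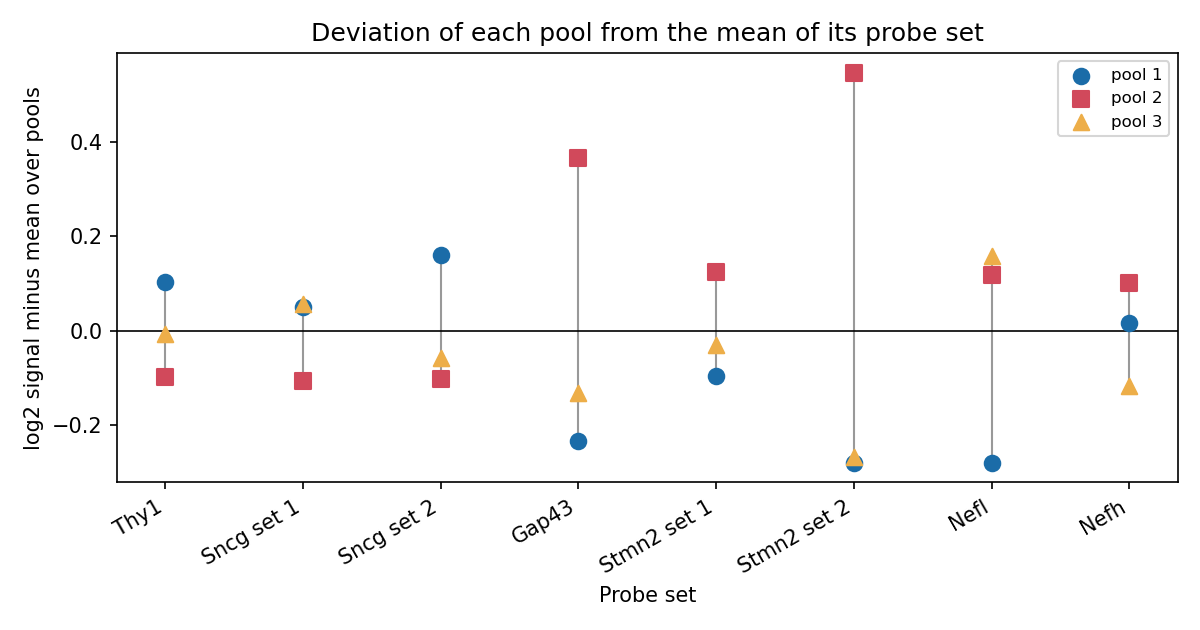
Log2 signal in each pool minus the mean over the 3 pools (vertical axis) for the 8 measured probe sets (horizontal axis), with grey lines joining the lowest and highest pool. Pool 2 is highest for Gap43, both Stmn2 sets and Nefh, and lowest for Thy1 and both Sncg sets.

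The spread of each probe set between pools was tested against that of sets with similar brightness in limma, as the tail p of its variance under an F distribution with an intensity trend fitted to all 8327 measured probe sets, adjusted by Benjamini-Hochberg at a threshold of 0.05. Over all measured probe sets 18 passed (0.216%), and 445 (5.34%) had an unadjusted p under 0.05. Of the 8 sets of the ganglion cell genes 0 passed and 0 had an unadjusted p under 0.05 (limma), with adjusted p from 0.97 for the second Stmn2 set to 0.996. That set came nearest, with an unadjusted p of 0.058 (limma). An SD below the trend was found for 6 of the 8 sets, the exceptions being Gap43 (0.32 against 0.25) and the second Stmn2 set (0.47 against 0.25), and for 60.3% of all measured sets. The median SD of the 8 sets was 0.13 on the log2 scale, against 0.268 for all measured sets and 0.214 for the 25% with the highest mean signal.

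The test allows only large differences to be called with 3 arrays. From the fitted distribution, 1 pool would have had to stand apart from equal signals in the others by 3.62-fold at the signal of the brightest Stmn2 set and by 4.82-fold at the signal of Nefh for a p as small as that of the last probe set called. Differences smaller than this, among them those of Gap43, Stmn2 and Nefl in the sentences above, were not detectable by this test. A range over 2-fold between pools was found for 0 of the 8 sets and for 1098 of the 8327 measured sets (13.2%).

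**Figure D3:**
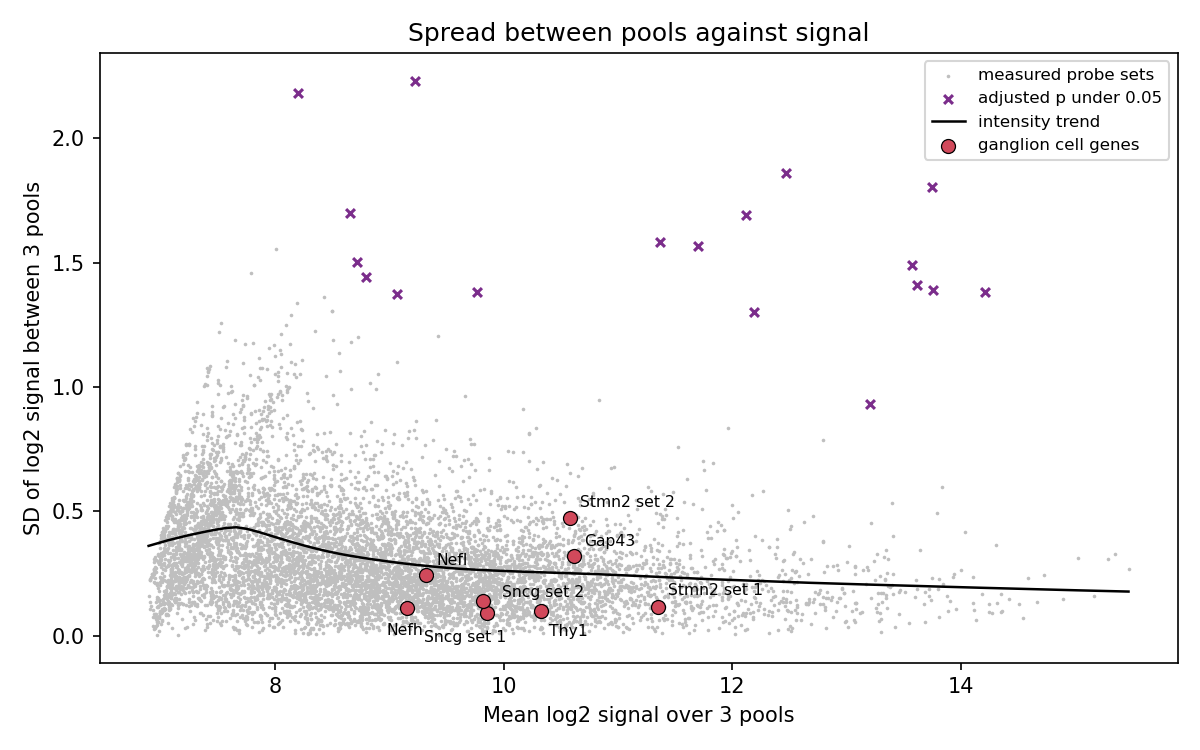
SD of log2 signal between the 3 pools (vertical axis) against mean log2 signal (horizontal axis) for the 8327 measured probe sets in grey, with the fitted trend as a line, the 18 called sets as crosses and the 8 sets of the ganglion cell genes as red circles. The red circles lie between 0.09 and 0.47, below the called sets, which begin at 0.93.

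Whether the genes fall into groups by their pattern over the pools was not tested. Thy1 and the second Sncg set differed by at most 0.06 on the log2 scale in their deviation from their own mean in any pool, and Thy1 and the first Sncg set also by at most 0.06. The Sncg sets differed from each other by at most 0.11. The set next nearest to Thy1, that of Nefh, differed from it by 0.20. The first Stmn2 set differed from Nefh by at most 0.11, from Nefl by 0.19 and from Gap43 by 0.24. Gap43 and the second Stmn2 set differed by at most 0.18, and the first and second Stmn2 set by 0.42. The widest gap, 0.65, lay between the first Sncg set and the second Stmn2 set. These values describe 3 arrays and cannot show that genes vary together.

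The patterns were not particular to these genes. Among 6209 other measured genes, 8.20% lay within 0.1 of Thy1 on the log2 scale in every pool, 4.38% within 0.1 of Nefl, 6.93% within 0.1 of Nefh, 2.61% within 0.1 of Gap43, and 7.25% and 1.01% within 0.1 of the first and second Stmn2 set. Of genes with a mean signal within 2-fold, those nearest to Thy1 by this measure over the 3 arrays were Smn1, Ppp1r21 and Nup62. Psip1, Stx12 and Ppef2 were nearest to Gap43. Rab24, Septin2 and Chtop were nearest to the second Stmn2 set, and Map11, Gabarap and Capns1 to the first. For the first Sncg set the nearest were Nrd1, Rbck1 and Mknk1, and for the second Cmtr1, Trak1 and Txndc5. Dym, 5031439G07Rik and Ldb2 were nearest to Nefl, and Fads1, Ccne1 and Urod to Nefh. The largest difference in any pool was 0.05 for these 24 genes, reached by Chtop.

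Other markers of ganglion cells were detected, some with a wider spread. The SD of log2 signal reached 0.73 for Scn1a, a sodium channel gene named after its values were seen, by a set of the s class. Its other set, without a suffix, had 88.1, 187.8 and 103.9 in pools 1, 2 and 3. That set was above the floor in pool 2 only and had an SD of 0.46. Of 22 further ganglion cell markers 12 had a named probe set, all 12 were measured and 11 were above the floor in all pools. None passed the test (limma, lowest adjusted p = 0.47). An unadjusted p under 0.05 (limma) was found for 3 of the 12, against 317 of all 6210 measured genes. Of the 12, 5 ranged over more than 2-fold, against 12.1% of all 6210 measured genes. Rbpms, an RNA-binding protein restricted to ganglion cells within the retina, had 707.7, 497.7 and 530.4 in pools 1, 2 and 3, and its other set had 579.3, 410.2 and 423.0. Both Rbpms sets were highest in pool 1 and lowest in pool 2, and pool 2 was likewise the lowest for Thy1 and both Sncg sets. Elavl3, a neuronal RNA-binding protein, had 508.1, 555.5 and 421.4.

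Cd24a, a surface sialoglycoprotein of young neurons, had 3575.5, 2274.3 and 5935.0. Pvalb, a calcium-binding protein, had 1242.3, 905.0 and 1839.4 by a set of the i class. Its f-class set read only 78.8, 55.4 and 74.9, short of the floor in each pool, so the order for Pvalb rests on the i-class set alone. By the values above the floor, Cd24a and Pvalb were highest in pool 3 and lowest in pool 2, as were all 11 measured lens genes. The part of lens tissue in these values was not tested. Chrna6, a nicotinic receptor subunit singled out after its values were seen, had 389.2, 600.9 and 374.0, with pool 2 highest as for Gap43.

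Of 19 transcription factors of ganglion cell fate 13 had a named probe set and 9 were measured. None passed the test (limma, lowest adjusted p = 0.46). An unadjusted p under 0.05 (limma) was found for 2 of the 9, against 317 of all 6210 measured genes. A range over 2-fold was found for 3 of the 9, against 12.1% of all measured genes. Of the 9, 6 were highest in pool 1, a pool that was highest for 34.6% of all measured genes, and 6 were lowest in pool 3, against 32.6% of all. Sox4 had 3446.9, 2099.2 and 1639.6 in pools 1, 2 and 3, and its other set 3189.9, 1966.6 and 1935.1. Ebf3 had 1287.2, 923.7 and 801.6 by one set and 936.3, 549.7 and 614.4 by another. Isl1, which is also used by amacrine and bipolar cells, had 1515.8, 1465.5 and 966.3, and the zinc finger factor Myt1 2910.9, 2610.6 and 2670.6. Of the others over 2-fold, both named after their values were seen, Sox11 had 608.0, 299.9 and 108.4, at least 5.05-fold lower in pool 3, where it was under the floor, while its other set, of the f class, ran the other way at 129.7, 168.7 and 188.0. Ebf2 had 134.9, 164.3 and 330.6, with pool 3 highest. Pool 1 was the highest for Sox4, Ebf3, Isl1 and Myt1, and Thy1 had its highest signal there too, whereas Gap43, Stmn2 and Nefl had their lowest. Atoh7, which gives progenitors competence for the ganglion cell fate, was under the floor in every pool at 38.6, 26.3 and 87.5. Haemoglobin and other blood genes were also highest in pool 1, for 3 of 3 measured, with summed signals of 20541, 12672 and 10546, and the part of blood was not tested.

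Partners of the neurofilament subunits did not share one order with them. Of 6 further filament genes 5 had a named probe set and 4 were measured, and none passed the test (limma, lowest adjusted p = 0.99). Nefm, the medium subunit, had 433.2, 303.7 and 271.4 in pools 1, 2 and 3. Its signal in pool 1 exceeded that in pool 3 by 0.67 on the log2 scale, whereas Nefl in pool 1 lay 0.44 below pool 3. Ina (alpha-internexin, the filament protein of young neurons) had 2873.6, 2331.5 and 2077.0 by one set, of the r class, and 2441.7, 2715.4 and 1598.3 by another, of the f class. Both Ina sets were lowest in pool 3, and their highest pools differed. Nes (nestin of progenitors) had 299.9, 311.2 and 335.5 by one set and was under the floor in every pool by its other set. Plec (plectin, a linker of filaments) had 183.2, 152.0 and 187.3. Prph (peripherin of peripheral neurons) was under the floor in every pool by both of its sets. Sncb, the beta member of the synuclein family, had 1863.4, 2116.2 and 1723.7, highest in pool 2, where Sncg was lowest.

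Among 17 growth cone and stathmin genes, 13 of the 14 with a named probe set were measured, all 13 above the floor in every pool. None passed the test (limma, lowest adjusted p = 0.87). An unadjusted p under 0.05 (limma) was found for 1 of the 13, against 317 of all 6210 measured genes. Their median SD of log2 signal was 0.21 and 0 of 13 ranged over more than 2-fold, against 0.26 and 12.1% for all measured genes. Basp1, a membrane protein of axon endings related in function to Gap43, had 16952.1, 16573.4 and 19599.2 in pools 1, 2 and 3. Stmn1 had 8375.5, 5899.1 and 7355.4, with pool 2 lowest where Stmn2 was highest. Marcks and Marcksl1, further substrates of protein kinase C at the membrane, had 4433.2, 3855.7 and 4493.3 and 4910.9, 3726.2 and 4548.1, again with pool 2 lowest. The other stathmins, named after their values were seen, did not agree on an order. Stmn3 had 2020.9, 2581.4 and 2219.0 by one set, highest in pool 2, and 350.6, 424.8 and 490.3 by another, of the f class, highest in pool 3. Stmn4 had 1085.6, 883.6 and 804.8, highest in pool 1.

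Of 13 genes of axonal microtubules and their motors 11 could be read from a named set, each of them above the floor in every pool. None passed the test by its brightest set (limma, lowest adjusted p = 0.47, for Mapt, whose g-class set had 0.36). An unadjusted p under 0.05 (limma) was found for 2 of the 11, against 317 of all 6210 measured genes. A range over 2-fold was found for 2 of the 11, against 12.1% of all. These were Mapt, with 5236.9, 2016.5 and 3830.3 in pools 1, 2 and 3, and Dync1h1, with 6420.2, 2985.6 and 5085.4. The other Mapt sets had 4850.6, 1702.4 and 3101.4 (g class) and 1320.4, 1269.3 and 1847.2. Pool 2 was the lowest for 8 of the 11, also after quantile normalization, against 33.8% of all measured genes. Tuba1a, an alpha-tubulin, had 43398.0, 31402.1 and 46863.8, and the dynactin subunit Dctn1 had 6869.6, 4905.1 and 4470.0. Tubb3, the neuronal beta-tubulin used as a ganglion cell marker, had 6607.3, 8106.2 and 7031.8 by one set and 1359.3, 1804.4 and 1433.6 by another, both of the f class. Pool 2 was highest in both Tubb3 sets, as for Stmn2 and Gap43. Tubb2a had 8996.4, 11116.5 and 11663.6 by a set of the f class, and 188.1, 128.7 and 372.9 by a set of the r class.

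**Figure D4:**
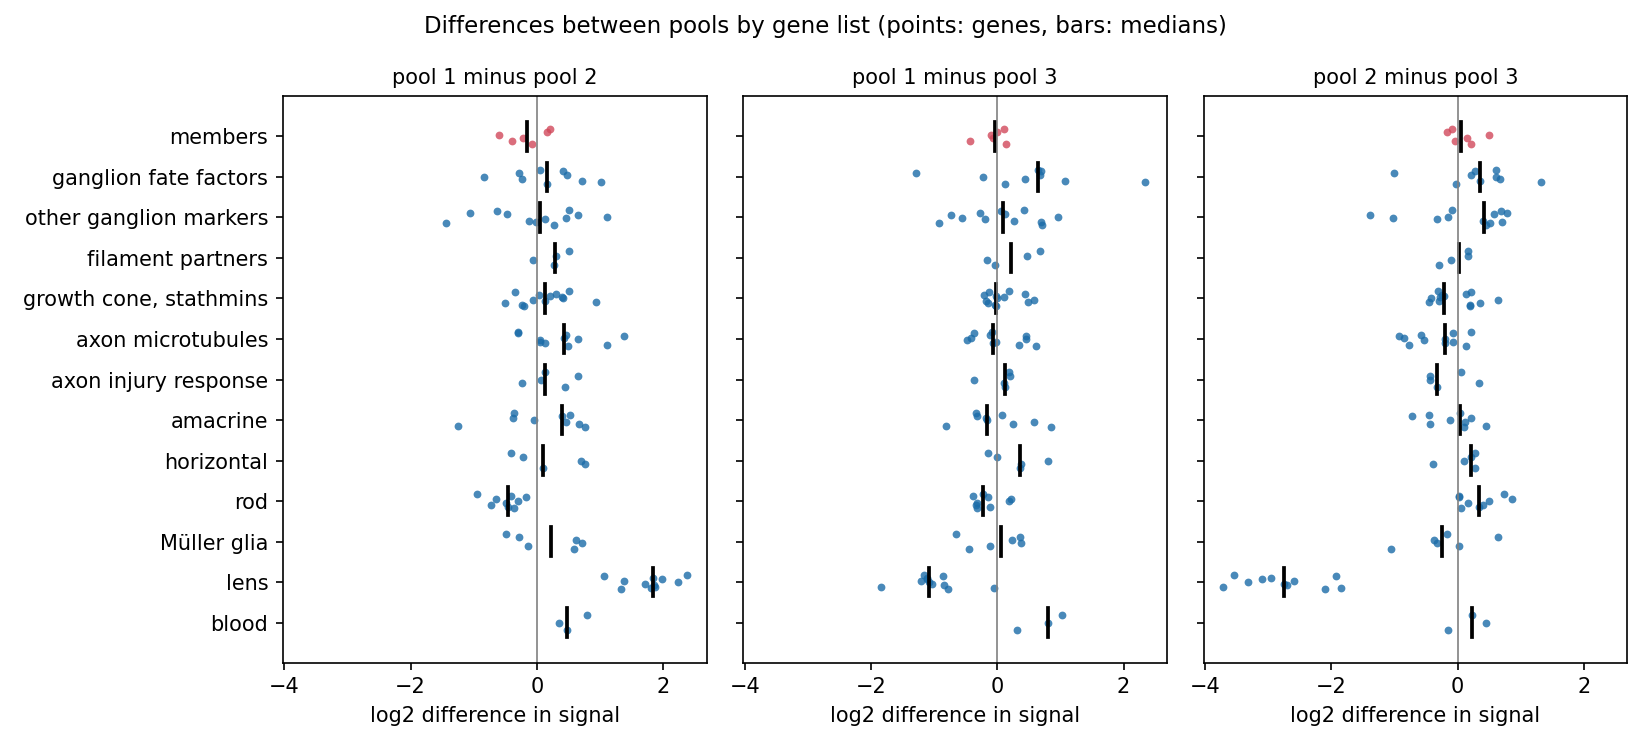
Log2 difference in signal between each pair of pools (horizontal axes) for the measured genes of the 6 members and of 12 further lists (vertical axis), with 1 point per gene and a bar at the median of the list. The lens genes have the largest medians in size of the lists shown in all 3 pairs, at 1.84, -1.08 and -2.75. Single lens genes overlap with other lists in the pairs with pool 1. The members, by the brightest set of each gene, lie between -0.60 and 0.50.

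Of 14 genes that injured axons and ganglion cells switch on, 10 had a named probe set. Of these, 5 were measured and 5 were under the floor, where 6210 of all 8251 named genes were measured. None of the 5 passed the test (limma, lowest adjusted p = 0.99), and 0 had an unadjusted p under 0.05. Gadd45a had 634.9, 607.6 and 822.8 in pools 1, 2 and 3, Ddit3 450.3, 528.8 and 417.2, Jun 476.1, 304.2 and 414.0, and the neuropeptide Gal 428.1, 313.3 and 393.9. The other Gal set, of the r class, had 119.5, 178.2 and 124.7, highest in pool 2, where the brighter set was lowest. Atf3, a factor induced early after axon damage, had 300.3, 273.1 and 263.5 by a set of the f class, 127.4, 64.4 and 284.9 by a set of the r class, and lay under the floor by its remaining set. Sprr1a, induced in regenerating neurons, was under the floor in every pool at 27.4, 28.6 and 42.6.

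Other cells that could carry the members' transcripts were read from marker lists. Amacrine genes were measured for 9 of 11 with a named probe set, with summed signals of 13474, 13143 and 14323 in pools 1, 2 and 3. The amacrine genes not measured, Gad2 and Slc18a3, were under the floor in every pool. Horizontal cell genes were measured for 5 of 5, with summed signals of 4147, 3750 and 3237. Pool 1 was highest for 4 of the 9 amacrine genes, pool 2 for 3 and pool 3 for 2, while of the 5 horizontal cell genes 3 were highest in pool 1 and 2 in pool 2. Calb2, which ganglion cells also express, had 3225.7, 4193.0 and 3640.4 and Gad1 1793.8, 2300.8 and 2255.7, both highest in pool 2. The glycine transporter Slc6a9 had 2619.9, 1824.5 and 2492.2 and the vesicular transporter Slc32a1 1777.3, 1344.4 and 2208.3, both lowest in pool 2. Among horizontal cell genes Calb1 had 362.8, 481.9 and 400.2 and Lhx1 299.6, 347.4 and 301.7, highest in pool 2, whereas Septin4 had 2417.7, 2267.5 and 1876.8 and Prox1 844.8, 522.6 and 486.7, highest in pool 1. The other Septin4 set, of the f class, had 118.6, 211.1 and 173.4, highest in pool 2.

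T cell genes bear on Thy1, and of 7 with a named probe set only Cd4 was measured, where 6210 of all 8251 named genes were. Cd4, a coreceptor that microglia and other myeloid cells can also carry, had 444.5, 263.6 and 205.9, a range of 2.16-fold with pool 1 highest, the pool where Thy1 was highest too. Cd3d, Cd3e and Cd3g, which form the T cell receptor complex, were under the floor in every pool. Of 10 oligodendrocyte and astrocyte genes 5 were measured, with summed signals of 1153, 1170 and 1147. Mog and Cnp were under the floor in every pool. The myelin gene Mbp had 425.9, 302.1 and 268.1, and Pax2 256.2, 260.9 and 275.6. Mag had 152.8, 131.5 and 245.2 by an r-class set, and Gfap 253.6, 287.2 and 237.7 by a g-class set. Their other sets, without a suffix, had 70.7, 134.6 and 19.0 for Mag and 86.3, 148.3 and 53.2 for Gfap. Both of these rose above the floor in pool 2 only. Rod genes were highest in pool 2 for 9 of 9 measured, against 33.6% of all measured genes, with summed signals of 72446, 95099 and 84044. Gap43, Stmn2 and Nefh were also highest in pool 2, whereas Thy1 and both Sncg sets were lowest there, and Nefl was highest in pool 3. Müller glia genes were measured for 6 of 7, with summed signals of 21097, 18706 and 20957, and Vim was under the floor in every pool. None of the amacrine, horizontal, T cell, rod, oligodendrocyte, astrocyte and Müller glia genes passed the test (limma, lowest adjusted p = 0.83). The part of any of these cells in the differences between pools was not tested.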

How the data were processed

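The table deposited by the authors gives 1 linear intensity per probe set and array. The software, its version and its background correction were not given in the sources used here. It holds 12488 probe sets besides 1 blank row, and 66 control sets were left out. The platform annotation gave 1 symbol to 10833 of the other 12422 sets. Of these, 10817 were matched to a mouse gene table (GRCm38.p6), whose symbol was then used. No coordinates are reported, because the files name no genome build.

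The floor of each array was the 90th percentile of 19 bacterial and yeast control sets. Signals under it were set to it before log2 was taken, and 8327 sets with a mean above the mean floor were tested with limma 3.58.1 (R 4.3.3; intercept-only model, robust F fit with trend). The procedure was tested on simulated data. Python 3.11.15, pandas 2.3.3, numpy 2.4.6, scipy 1.17.1 and matplotlib 3.10.9 did the rest.

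Arrays were numbered 1 to 3 in accession order as names only. P-values measure the spread between these 3 samples. A gene is represented by its set with the highest mean signal. Named genes are the members, up to 4 genes per list with the highest mean signal, genes past the test, the first-listed markers where not measured, and the 3 genes nearest to each member set. Outside this rule, Atf3, Atoh7, Dync1h1, Mapt, Prph, Slc18a3, Sprr1a and Vim, and genes so marked in the text, were named after their values were seen. The members and the 15 lists were chosen with earlier results of these data known. Alternatives were quantile normalization, a floor at the median control, log2(signal + 50), no filter, the 25% highest signals, an ordinary fit, no trend, each array left out, and the mean over a gene's sets.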

Additional observations from a re-analysis of the deposited data

How the results depend on the processing

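Under all 10 alternatives of scaling, floor, filter, fit and left-out array, 0 of the 8 ganglion cell probe sets (7 among the 25% highest signals) passed the limma test and, in the 8 of these that change signals or samples, 0 ranged over more than 2-fold; the lowest adjusted p was 0.66 (limma, without pool 1). Nefm and other listed genes were not followed through the alternatives. Over all probe sets the count passing was 18, and it was 11 with log2(signal + 50), 52 with no filter, 6 with a fit that is not robust and 0 without the trend, where 377 sets had an unadjusted p under 0.05 (limma). Leaving out 1 array gave from 4 (without pool 3) to 40 (without pool 1), with 10 without pool 2. The count over 2-fold was 1098, against 2699 with the floor at the median control and 150 among the 25% highest signals, where fewer sets were tested, and from 428 to 594 with 1 array left out. The causes of these changes were not tested. The SD of log2 signal of Stmn2 was 0.29 with its measured sets averaged, against 0.11. With 3 values, leaving out the pool furthest from the others must lower the SD. The next values therefore show only which pool that was and how near the others lay. Without pool 2 the SD was 0.008 against 0.47 for the second Stmn2 set, 0.05 against 0.11 for the first, 0.07 against 0.32 for Gap43 and 0.0036 against 0.09 for the first Sncg set. Without pool 1 it was 0.03 against 0.24 for Nefl, 0.03 against 0.14 for the second Sncg set and 0.06 against 0.10 for Thy1, and without pool 3 it was 0.06 against 0.11 for Nefh. Leaving out another pool could raise it, to 0.58 without pool 1 or pool 3 for the second Stmn2 set and to 0.42 without pool 3 for Gap43. No paired analysis was possible because all arrays belong to 1 group. Signals near the floor and the number of arrays limit what can be seen.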
